A study of Mus musculus with 10 samples.

Results

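The 72 genes described here are long non-coding genes of the mouse that are named for a protein-coding neighbour on the opposite DNA strand: the symbol of the neighbour followed by "os", for opposite strand. Such genes arise in several ways. Some start beside the promoter of the coding gene and run away from it, some lie across the body or the 3' end of the coding gene, and a few are separate neighbours that carry its name. In several studied cases an opposite-strand transcript has been found to affect its coding neighbour, through the act of transcription or through the RNA, and for many no function is known. The name says only where the gene lies, so the function of the partner is not the function of the opposite-strand gene.

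They were chosen by name and level. Transcript values were summed per gene, genes whose symbol ends in "os" or in "os" and a digit were taken, and a mean of at least 0.1 FPKM over all samples was asked for. FPKM, a level per length, divides a gene's fragments by transcript length and by library size. The table held 14787 genes and assembled loci, 287 of them with such a symbol, of which 181 were above 0 in a sample, 75 reached the minimum and 212 did not. Hand2os1, Tbx3os1 and Dnm3os were left out by name, which left 72. Because the mean level chose them, their levels are a description. Just inside the minimum lay Zfp85os at 0.106 FPKM, Rbm3os at 0.103 FPKM and Taco1os at 0.101 FPKM. Just outside it lay Sox6os at 0.0999 FPKM, Grin1os at 0.0978 FPKM and a further gene also named Tmem147os (ENSMUSG00000109224.1) at 0.0882 FPKM.

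The tissue was left ventricle of the C57BL/6 mouse strain, taken 6 weeks after TAC (transverse aortic constriction), surgery that narrows the aortic arch and so raises the pressure against which the ventricle pumps. The groups were Sirt5 knockout (Sirt5 KO, 4 samples, replicates 2 to 5) and wild type (WT, 6 samples, replicates 1 and 3 to 7), and samples of both genotypes had TAC, so the values say nothing about the load itself. Sirt5 is a mitochondrial enzyme that takes succinyl, malonyl and glutaryl groups off lysines. The series' design text describes male C57BL/6N mice that were 5 weeks old, a conventional CRISPR-Cas9 knockout and also a tamoxifen-inducible Cre-ERT2 system, and injections of 1 mg tamoxifen daily on 10 days with 4 weeks before the surgery. Which mice each description refers to is left unsaid, and so is the cell type in which the Cre was driven. Whether each sample is a different animal is not labelled, and p-values therefore reflect the variation among the samples, which may be technical.

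Of the 72 genes, 60 were annotated as antisense, 6 as processed transcripts, 4 as lincRNA and 2 as bidirectional promoter lncRNA. On GRCm38, 18 lay on chromosome 11, 12 on chromosome 2 and 6 on chromosome 4, and no other chromosome held more than 3. In 30 the gene and its partner were head-to-head, with starts at most 1000 bases apart, 39 overlapped the partner on the opposite strand in another way, and 3 lay apart from it (Epb41l4aos, Foxo6os and Chrna1os). Of all 72, 14 lay wholly within the partner, and 53 shared exon bases with it. In the descriptions of single genes below, "beside" a partner covers partial overlap as well as head-to-head starts. Counting any coding gene on the opposite strand, 56 shared exon bases and in 6 the shared part was over 50% of the exon bases. These 6 were Hoxb3os (76.2%), Runx2os1 (65.5%), Slfn5os (64.4%), Frmd8os (63.4%), Phtf1os (63.0%) and Ccdc142os (56.8%). None of the 72 overlapped a coding gene on the same strand. The sources used here do not say whether the authors' quantification took account of strand, so for those 56 genes reads of the coding gene may be counted in the value. Reads from introns of a coding gene may likewise be counted in genes that overlap it without shared exon bases, such as Nr6a1os, Banf2os, Kirrel3os and Dtnbos.

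The sequences around the start sites are shown first because 30 of the genes start beside the coding gene they are named for. RefSeq windows on GRCm38.p6, from 250 bases before to 50 bases after an annotated start, were at hand for 45 of the 72 genes, and in 13 of the 36 gene pairs with windows for both, the partner's start lay inside the opposite-strand gene's window. The genes below are 3 head-to-head genes of higher level (Map2k3os, Junos and Fam120aos), the gene beside a cardiac potassium channel (Kcnd3os), and Chn1os3, the gene whose genotypes did not overlap. Each is printed 5' to 3' on the strand of the opposite-strand gene. The windows are chr11:60931818-60932117 on the minus strand for Map2k3os, chr4:95052067-95052366 on the plus strand for Junos and chr13:48967862-48968161 on the plus strand for Fam120aos. Those of the other two are chr3:105452906-105453205 on the minus strand for Kcnd3os and chr2:73596276-73596575 on the plus strand for Chn1os3. Capitals mark matches to 3 motifs, each searched on both strands. They are the GC box, spelled GGGCGG, the CCAAT box, spelled as its name, and the TATA box, spelled TATAAA.
Map2k3os: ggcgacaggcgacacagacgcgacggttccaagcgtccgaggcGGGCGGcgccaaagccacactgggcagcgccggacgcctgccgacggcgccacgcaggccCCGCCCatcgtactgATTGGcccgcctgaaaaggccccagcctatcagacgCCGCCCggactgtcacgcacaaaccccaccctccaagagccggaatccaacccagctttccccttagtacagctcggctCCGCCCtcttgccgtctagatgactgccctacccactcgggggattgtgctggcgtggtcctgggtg
Junos: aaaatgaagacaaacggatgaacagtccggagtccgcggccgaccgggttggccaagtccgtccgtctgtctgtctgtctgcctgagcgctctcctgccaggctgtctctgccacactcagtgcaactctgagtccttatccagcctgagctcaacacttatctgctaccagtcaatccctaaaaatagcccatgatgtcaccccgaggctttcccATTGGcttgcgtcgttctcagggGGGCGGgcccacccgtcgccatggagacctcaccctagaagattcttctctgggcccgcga
Fam120aos: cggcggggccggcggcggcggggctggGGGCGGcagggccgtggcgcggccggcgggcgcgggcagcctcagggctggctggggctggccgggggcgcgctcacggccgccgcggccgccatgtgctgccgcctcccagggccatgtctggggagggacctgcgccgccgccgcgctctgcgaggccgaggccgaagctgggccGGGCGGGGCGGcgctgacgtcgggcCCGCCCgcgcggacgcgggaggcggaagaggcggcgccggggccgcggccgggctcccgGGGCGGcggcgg
Kcnd3os: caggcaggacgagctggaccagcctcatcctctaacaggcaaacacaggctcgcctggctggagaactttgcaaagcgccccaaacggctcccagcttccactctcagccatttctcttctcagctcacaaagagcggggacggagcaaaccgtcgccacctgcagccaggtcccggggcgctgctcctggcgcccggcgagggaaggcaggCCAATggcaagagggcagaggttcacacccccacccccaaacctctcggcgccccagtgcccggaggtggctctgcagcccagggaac
Chn1os3: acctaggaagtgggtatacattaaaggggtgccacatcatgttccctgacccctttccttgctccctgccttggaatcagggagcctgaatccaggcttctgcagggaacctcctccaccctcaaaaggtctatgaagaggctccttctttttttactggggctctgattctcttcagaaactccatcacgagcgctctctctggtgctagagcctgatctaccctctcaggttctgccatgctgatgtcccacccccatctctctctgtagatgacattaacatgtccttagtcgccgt
The Map2k3os window held 4 GC boxes and 1 CCAAT box, that of Junos 1 of each, that of Fam120aos 5 GC boxes, and that of Kcnd3os 1 CCAAT box. The Chn1os3 window held none of the 3 motifs, which says only that these letters are not in it. The RefSeq starts of the gene and its partner lay 187 bases apart at Map2k3os, 95 bases apart at Junos and 52 bases apart at Fam120aos.

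Some genes have several windows, so shares are given over windows. The arrangement was set by GENCODE gene ends and the windows by RefSeq starts, and these annotations can disagree. By RefSeq, Dgkeos and Hk1os start 3 and 187 bases from the partner but were classed as overlapping. Ttc39aos1, classed as head-to-head, starts 9390 bases away. Some overlapping genes also cover the partner's start beyond the head-to-head distance limit, such as Irx3os at 1652 bases. The shares therefore do not compare cleanly separate arrangements. A GC box was present in 55.2% of 29 windows of head-to-head genes and in 18.4% of 38 windows of genes that overlapped the partner in another way. Over all 32851 RefSeq windows of the mouse the share was 35.7%, and over 73 windows of the coding partners it was 60.3%. The median GC content was 67.0% in head-to-head windows, 51.7% in the overlapping ones and 52.7% over all windows. A CCAAT box was in 34.5% of head-to-head and 26.3% of overlapping windows, against 37.4% of all. A TATA box was in 7.25% of the 69 windows of these genes and in 13.6% of all. Where a window contains the coding partner's start, the motifs belong to the stretch that both genes share, and a match is a description of the letters only.

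In the whole table, depth estimated from the step size of low values was 22600000 to 25700000 fragments in Sirt5 KO and 24700000 to 29800000 in WT, and between 36.9% and 42.6% of low values lay within 0.04 of a whole number of fragments at that depth, so fragment numbers per gene are rough. Sirt5 KO replicate 5 stood apart: Malat1 was at 951 FPKM there and at 58.4 to 81.8 FPKM in the other samples, and Dnm3os (4.65 FPKM), H19 (4.21 FPKM) and Meg3 (7.92 FPKM), transcripts known from fibroblasts, fetal tissue and endothelium, were highest there. Rmrp, an RNA that every cell uses, was listed at 0 in Sirt5 KO replicate 5 and in WT replicates 3, 5 and 6. A value of 0 in this table therefore need not mean that the RNA was absent from the tissue. Why Rmrp was at 0 there was not tested. Of 13 cell type markers chosen, 5 had values (Carmn, Mhrt, Dnm3os, H19 and Meg3), none of the 5 was at 0 in any sample, and their sum was 15.6 to 27.2 FPKM in Sirt5 KO and 18.4 to 24.9 FPKM in WT. Mhrt, a cardiomyocyte transcript of the myosin heavy chain locus, was present in every sample, at 0.835 to 5.78 FPKM. Its lowest value, 0.835 FPKM, was in Sirt5 KO replicate 5, where Dnm3os, H19 and Meg3 were highest. Carmn was at 9.56 FPKM in that sample, and only Sirt5 KO replicates 2 and 4 were lower. The coding markers and Sirt5 were not analysed here, since the table is one of long non-coding transcripts, so the genotype labels were not checked by the level of Sirt5.

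Most of these genes were present at low levels. Their median mean level was 0.268 FPKM, against 0.502 FPKM over all 3294 genes and loci that passed the same minimum and 0.267 FPKM over 435 other genes of the antisense class. Of the 72, 10 reached a mean of 1 FPKM, 62 were below it, and 29 lay between 0.1 and 0.2 FPKM. Values were above 0 in all samples for 54 genes, and 18 were listed at 0 in at least 1 sample. The sum over the 72 was 34.4 to 46.5 FPKM in Sirt5 KO and 31.3 to 44.0 FPKM in WT.

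**Figure D1:**
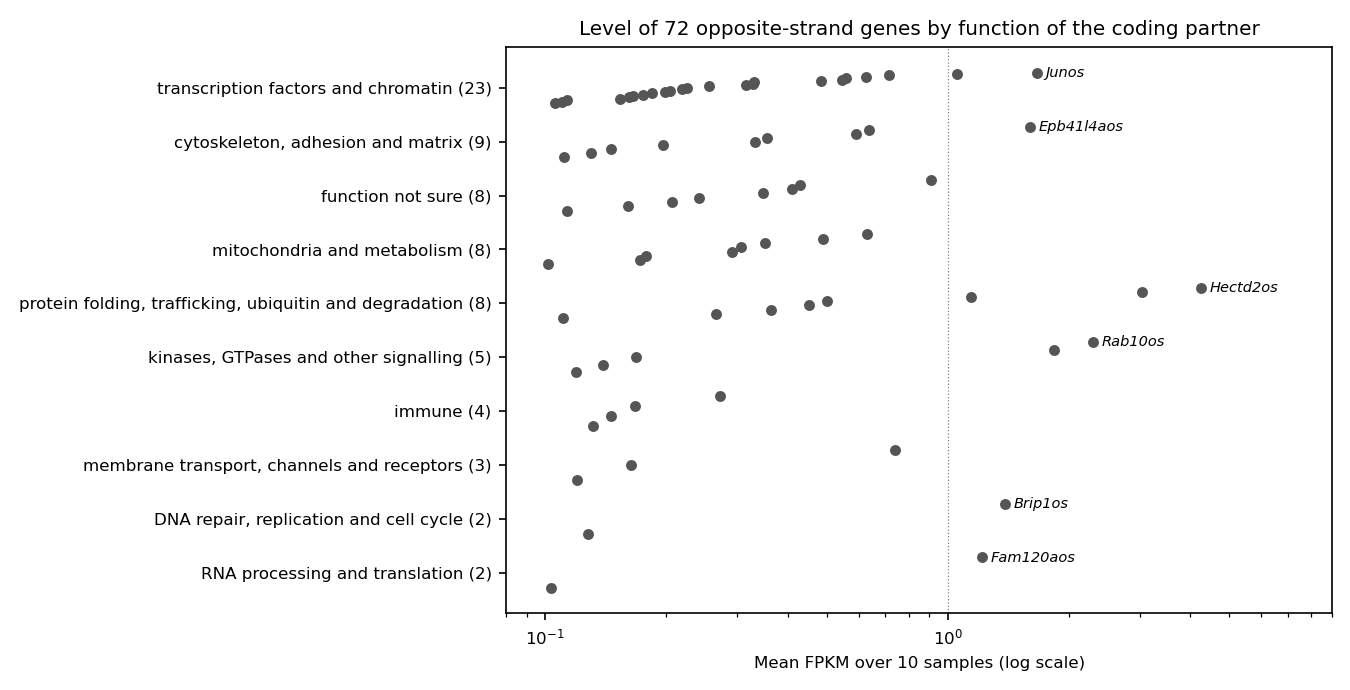
Mean level of each of the 72 genes over the 10 samples (horizontal axis, FPKM, log scale) by function of the coding partner (vertical axis, number of genes in brackets). Each point is 1 gene, the dotted line marks 1 FPKM, and the highest gene of a class is named where it reached that line, from Hectd2os at 4.26 FPKM down to Fam120aos at 1.22 FPKM.

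None of the 72 genes passed the test for a difference between genotypes. Genotypes were compared with limma on log2(FPKM + 0.1) over all 3294 genes and loci, which called 2 of them, 0.0607%, at a Benjamini-Hochberg adjusted p below 0.05, and 0 of the 72. The lowest adjusted p among the 72 was 0.456, for Chn1os3. At an unadjusted p below 0.05 there were 4 of 72 (5.56%), 1 higher and 3 lower in Sirt5 KO, against 8.50% of all genes and loci (2.98% higher and 5.53% lower). The genotypes did not overlap in 1 of 72 (1.39%), against 2.16% of all (0.820% higher in Sirt5 KO and 1.34% lower). Both shares were below the background. The fold change scale has a pseudocount of 0.1 FPKM, which understates the change of low genes.

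In direction, 39 of the 72 had a log2 fold change above 0 and 33 below 0, with a median of 0.03 against -0.04 over all genes and loci tested, of which 53.5% were below 0. The other antisense genes had 240 of 435 below 0 and a median of -0.08. In a bulk tissue, fewer cells of a type and less RNA per cell cannot be told apart in any of these values. Leaving out Sirt5 KO replicate 5 left 32 of 72 below 0 and no call among them. Scaling every sample to a common sum turned the split to 41 of 72 below 0, with a median of -0.08 for these genes and -0.18 for all. A pair of ribosomal loci made up 45.0% to 50.1% of that sum in Sirt5 KO and 35.6% to 51.9% in WT. Rmrp added between 0 and 1434 FPKM to it. The common sum therefore depends largely on a few RNAs, and this split is not a neutral check of direction.

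**Figure D2:**
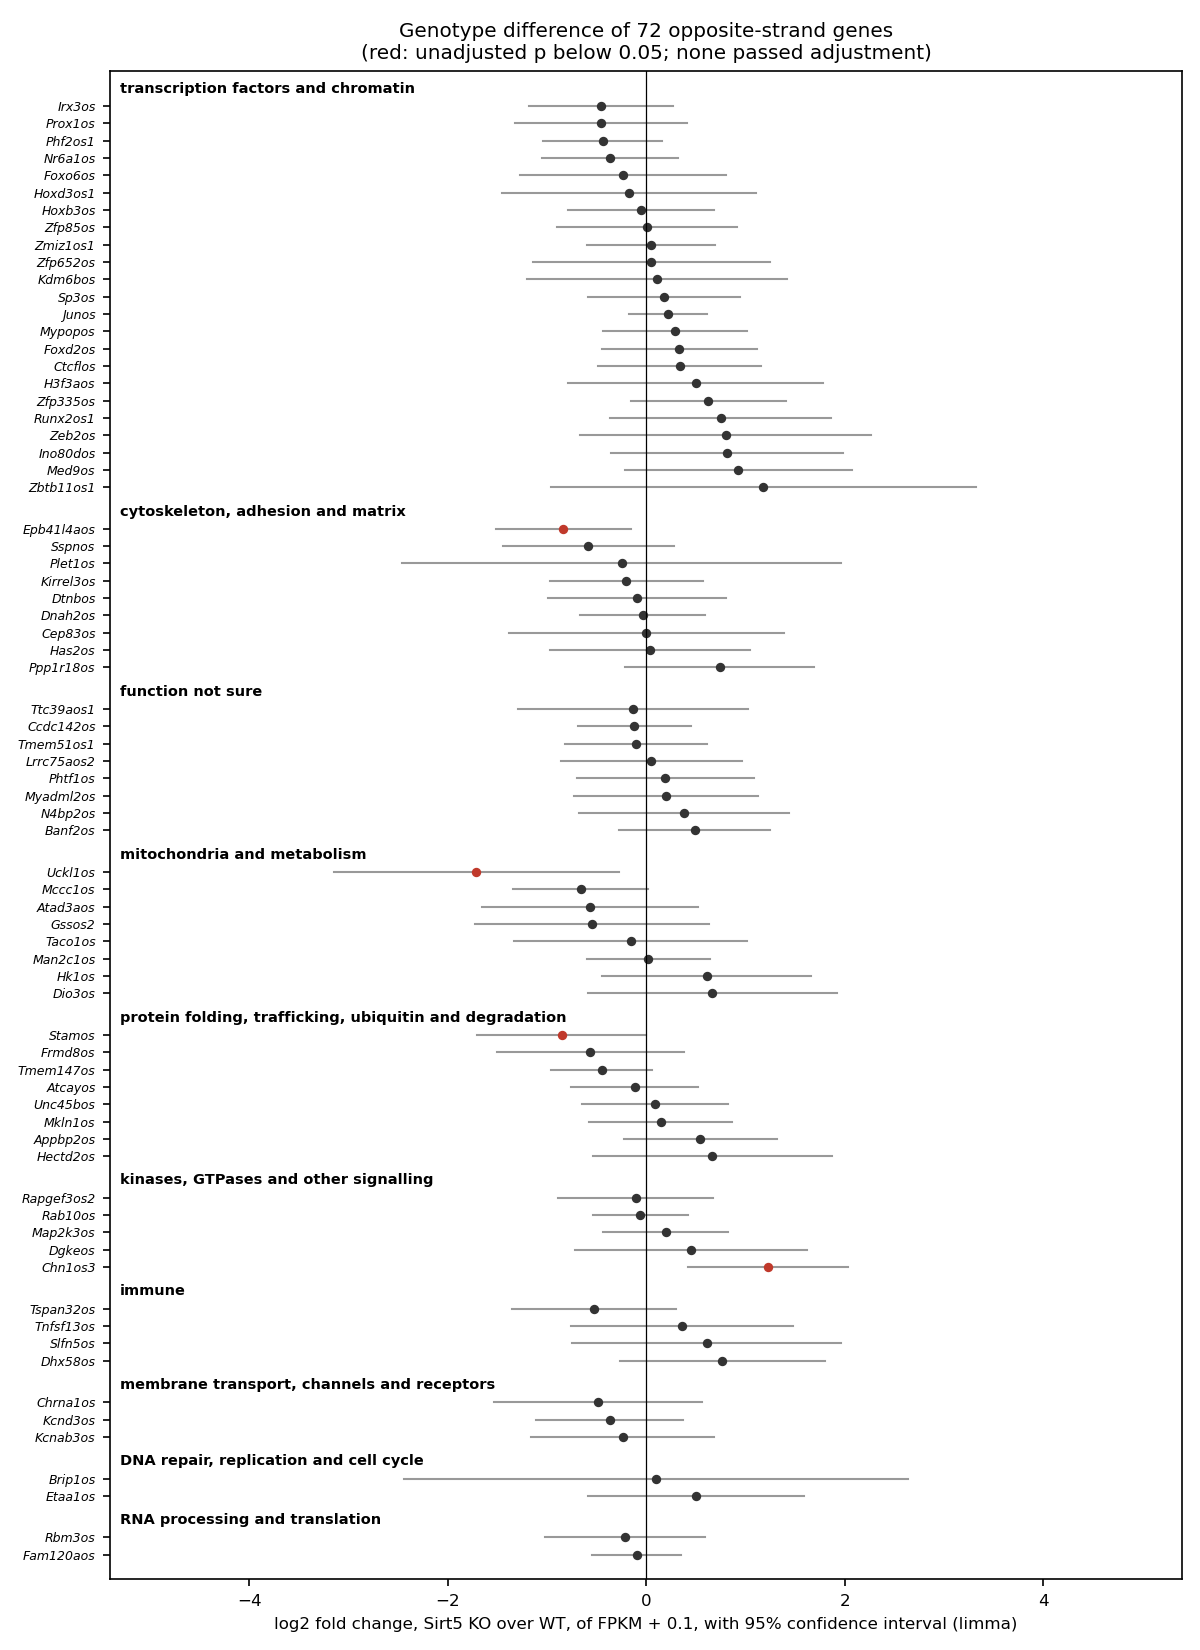
Log2 fold change of FPKM + 0.1, Sirt5 KO over WT (horizontal axis), of each of the 72 genes (rows, grouped by function of the partner), with the 95% confidence interval from limma as a bar. The 4 red points, Chn1os3 to the right of 0 and Epb41l4aos, Uckl1os and Stamos to the left, have an unadjusted p below 0.05, and none passed adjustment.

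The genes with partners that act in transcription and chromatin formed the largest class, with 23 members at 0.106 to 1.67 FPKM. Of them, 16 had a fold change above 0 and 7 below 0, the median was 0.18, and 0 passed the test. Jun is a subunit of the AP-1 transcription factor, which responds early to growth and stress signals. Its neighbour Junos (ENSMUSG00000087366.7, chr4:95051534-95167318, plus strand) had 1.63, 2.43, 1.47 and 1.85 FPKM in Sirt5 KO replicates 2, 3, 4 and 5, the order kept for every gene, and WT samples lay between 1.31 and 1.71 FPKM with a median of 1.57 FPKM. The genotypes overlapped, with the highest value in Sirt5 KO replicate 3 (log2 fold change 0.22, SE 0.18, 95% confidence interval -0.17 to 0.62, limma adjusted p = 0.752). Its coefficient of variation over the 10 samples was 18.5%, the lowest of the 72 after Fam120aos at 17.8%.

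Foxo6os (ENSMUSG00000084929.1, chr4:120291350-120303892, plus strand) starts 4001 bases from Foxo6, a forkhead transcription factor. It had 1.24, 1.27, 0.924 and 0.304 FPKM in Sirt5 KO and WT samples lay between 0.373 and 1.81 FPKM with a median of 1.21 FPKM. Sirt5 KO replicate 5 was the lowest sample and WT replicate 5 the highest (log2 fold change -0.23, SE 0.47, 95% confidence interval -1.27 to 0.81, limma adjusted p = 0.917). Without Sirt5 KO replicate 5 the log2 fold change was 0.17.

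Zfp335 is a zinc-finger regulator of transcription. Zfp335os (ENSMUSG00000085436.1, chr2:164911354-164919953, plus strand) had 0.927, 1.06, 0.849 and 0.710 FPKM in Sirt5 KO and between 0.212 and 1.25 FPKM with a median of 0.562 FPKM in WT. All 4 Sirt5 KO samples were above the WT median, and the highest sample of all was WT replicate 6 (log2 fold change 0.62, SE 0.36, 95% confidence interval -0.16 to 1.41, limma adjusted p = 0.688). Med9 is a subunit of Mediator, the complex that links factors to RNA polymerase II. Med9os (ENSMUSG00000085260.7, chr11:59946889-59948142, minus strand) had 0.0736, 0.157, 0.502 and 0.266 FPKM in Sirt5 KO, was listed at 0 in WT replicates 4, 6 and 7, and reached 0.222 FPKM in WT (log2 fold change 0.93, SE 0.52, 95% confidence interval -0.22 to 2.08, limma adjusted p = 0.685). At 0 to 6 estimated fragments a sample, these values rest on very few reads.

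The remaining genes of the class lay under 1 FPKM and are given by their means ± SD (n = 4 in Sirt5 KO and 6 in WT), as are the less abundant genes of the other classes. H3f3aos, beside the histone variant H3.3, was listed at 0 in 1 sample and reached 1.10 FPKM. Sp3os, beside a factor that binds GC boxes, averaged 0.576 ± 0.164 FPKM in Sirt5 KO and 0.527 ± 0.250 FPKM in WT. Mypopos, within the gene of a Myb-related factor, averaged 0.639 ± 0.266 FPKM in Sirt5 KO and 0.506 ± 0.198 FPKM in WT. Phf2os1, beside a histone H3 lysine 9 demethylase, averaged 0.378 ± 0.0972 FPKM in Sirt5 KO and 0.556 ± 0.155 FPKM in WT. Neighbours of developmental factors were lower still. Prox1os, beside the homeobox factor of lymphatic endothelium, averaged 0.248 ± 0.118 FPKM in Sirt5 KO and 0.384 ± 0.204 FPKM in WT, and Irx3os, beside a homeobox factor of the ventricular conduction system, averaged 0.153 ± 0.0298 FPKM in Sirt5 KO and 0.262 ± 0.126 FPKM in WT. Hoxb3os averaged 0.236 ± 0.0292 FPKM in Sirt5 KO and 0.267 ± 0.128 FPKM in WT, and Foxd2os averaged 0.262 ± 0.181 FPKM in Sirt5 KO and 0.165 ± 0.0401 FPKM in WT. The means of Nr6a1os, Zmiz1os1, Ctcflos, Zfp85os, Hoxd3os1, Kdm6bos, Zeb2os, Zfp652os, Runx2os1, Ino80dos and Zbtb11os1 lay between 0.106 and 0.328 FPKM, with fold changes from -0.36 for Nr6a1os to 1.18 for Zbtb11os1.

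Partners that fold, move or degrade proteins included those of the 2 most abundant genes, with 8 members at 0.110 to 4.26 FPKM, 4 above 0 in fold change and 4 below, and a median of -0.01. Hectd2 is a ubiquitin ligase of the HECT type. Hectd2os (ENSMUSG00000087579.7, chr19:36614052-36705641, minus strand), the highest of the 72, overlaps its 3' part, and 46.1% of its exon bases were shared with Hectd2. It had 5.28, 6.88, 3.81 and 3.73 FPKM in Sirt5 KO and between 0.924 and 7.75 FPKM with a median of 3.93 FPKM in WT. WT replicate 1 was the highest sample, and WT replicates 5 and 6 lay below all the others (log2 fold change 0.67, SE 0.55, 95% confidence interval -0.54 to 1.87, limma adjusted p = 0.754). Rmrp was listed at 0 in both, and also in Sirt5 KO replicate 5 (Hectd2os at 3.73 FPKM) and WT replicate 3 (3.77 FPKM). Over the libraries with Rmrp above 0 the log2 fold change was -0.09. Of its 8 transcripts in the table, the 3 highest were short, of 398, 309 and 460 bases, with means of 1.501, 1.47 and 0.970 FPKM.

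Atcay encodes caytaxin, a neuronal adaptor that ties cargo to kinesin. Atcayos (ENSMUSG00000085779.1, chr10:81194609-81210877, plus strand) overlaps the 3' part of Atcay and, on the same opposite strand, Nmrk2, an enzyme of NAD synthesis in muscle, and shared 16.05% of its exon bases with them. It had 3.63, 3.56, 3.25 and 1.40 FPKM in Sirt5 KO and between 2.04 and 3.98 FPKM with a median of 3.14 FPKM in WT. Sirt5 KO replicate 5 was the lowest sample, and the other 3 Sirt5 KO samples lay inside the WT range (log2 fold change -0.12, SE 0.29, 95% confidence interval -0.75 to 0.52, limma adjusted p = 0.933). Without Sirt5 KO replicate 5 the log2 fold change was 0.20.

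Tmem147 is a membrane protein of the endoplasmic reticulum, and Tmem147os (ENSMUSG00000097320.8, chr7:30729579-30745929, plus strand) starts 39 bases from it. It had 0.597, 0.773, 1.11 and 1.27 FPKM in Sirt5 KO and between 0.984 and 1.58 FPKM with a median of 1.28 FPKM in WT. Sirt5 KO replicates 2 and 3 were below every WT sample, and the other 2 were inside the WT range (log2 fold change -0.45, SE 0.23, 95% confidence interval -0.95 to 0.06, limma adjusted p = 0.653). Stam is an adaptor of endosomal sorting. Stamos (ENSMUSG00000086657.2, chr2:14070332-14073934, minus strand) had 0, 0.0777, 0 and 0.0932 FPKM in Sirt5 KO and between 0.0733 and 0.262 FPKM with a median of 0.138 FPKM in WT. The 2 Sirt5 KO samples above 0 were inside the WT range (log2 fold change -0.85, SE 0.39, 95% confidence interval -1.70 to -0.00066, limma adjusted p = 0.586).

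Unc45b is the chaperone that folds myosin in striated muscle, and Unc45bos averaged 0.532 ± 0.253 FPKM in Sirt5 KO and 0.482 ± 0.198 FPKM in WT. Mkln1os, beside a subunit of the CTLH ubiquitin ligase, averaged 0.476 ± 0.144 FPKM in Sirt5 KO and 0.435 ± 0.176 FPKM in WT. Appbp2os, beside a substrate receptor of a cullin ligase, averaged 0.342 ± 0.111 FPKM in Sirt5 KO and 0.214 ± 0.122 FPKM in WT. Frmd8os, beside a partner of the iRhom sheddase complex, averaged 0.261 ± 0.162 FPKM in Sirt5 KO and 0.433 ± 0.247 FPKM in WT. In each of these 4 genes the ranges of the genotypes overlapped.

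Signalling partners had 5 opposite-strand genes at 0.119 to 2.29 FPKM, 3 above 0 in fold change and 2 below. Chn1os3 was the 1 gene of the 72 whose genotypes did not overlap. Its partner Chn1 encodes chimaerin 1, which stimulates the GTPase activity of Rac. Chn1os3 (ENSMUSG00000086544.1, chr2:73596526-73616012, plus strand) overlaps the 3' part of Chn1 by 5353 bases, with 7.2% of its exon bases shared. Its RefSeq start, whose window is printed above, is 63897 bases from the nearest RefSeq start of Chn1. By the GENCODE gene ends the distance between the starts is 178820 bases. It had 0.262, 0.460, 0.213 and 0.285 FPKM in Sirt5 KO and between 0.00832 and 0.189 FPKM with a median of 0.0769 FPKM in WT. The lowest Sirt5 KO sample, at 0.213 FPKM, was just above the highest WT sample, at 0.189 FPKM. This separation was seen only in the sum of its transcripts. The transcript of 538 bases was at 0.111 FPKM in Sirt5 KO replicate 4 and at 0.172 FPKM in WT replicate 3. That of 2707 bases was at 0.00511 FPKM in Sirt5 KO replicate 3 and at 0.048 FPKM in WT replicate 4. The difference did not pass adjustment (log2 fold change 1.23, SE 0.37, 95% confidence interval 0.42 to 2.04, limma adjusted p = 0.456; adjusted p 0.341 to 0.817 over the alternatives). The gene rested on 0.6 to 10.9 estimated fragments a sample, 6.2 to 10.9 in Sirt5 KO and 0.6 to 4.6 in WT.

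Map2k3 is a kinase that activates p38 MAP kinase, a stress pathway of the loaded heart. Map2k3os (ENSMUSG00000042549.10, chr11:60920917-60931867, minus strand) runs away from the Map2k3 promoter and shares no exon base with a coding gene. It had 1.53, 2.81, 2.09 and 1.49 FPKM in Sirt5 KO and between 0.817 and 2.20 FPKM with a median of 1.91 FPKM in WT. Sirt5 KO replicate 3 was the highest sample and WT replicate 3 the lowest (log2 fold change 0.20, SE 0.29, 95% confidence interval -0.44 to 0.83, limma adjusted p = 0.872). Rab10 is a small GTPase of vesicle traffic. Rab10os (ENSMUSG00000079179.9, chr12:3235504-3250377, plus strand) had 2.84, 2.55, 1.85 and 1.71 FPKM in Sirt5 KO and between 1.60 and 3.14 FPKM with a median of 2.25 FPKM in WT. The values of both genotypes covered about the same range (log2 fold change -0.06, SE 0.22, 95% confidence interval -0.54 to 0.43, limma adjusted p = 0.961). Of the Rab10os exon bases, 2.3% were shared with Rab10. Rapgef3os2, beside the cAMP-activated exchange factor EPAC1, averaged 0.133 ± 0.0869 FPKM in Sirt5 KO and 0.144 ± 0.0580 FPKM in WT, and Dgkeos, beside a diacylglycerol kinase, was listed at 0 in 1 sample and reached 0.376 FPKM.

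**Figure D3:**
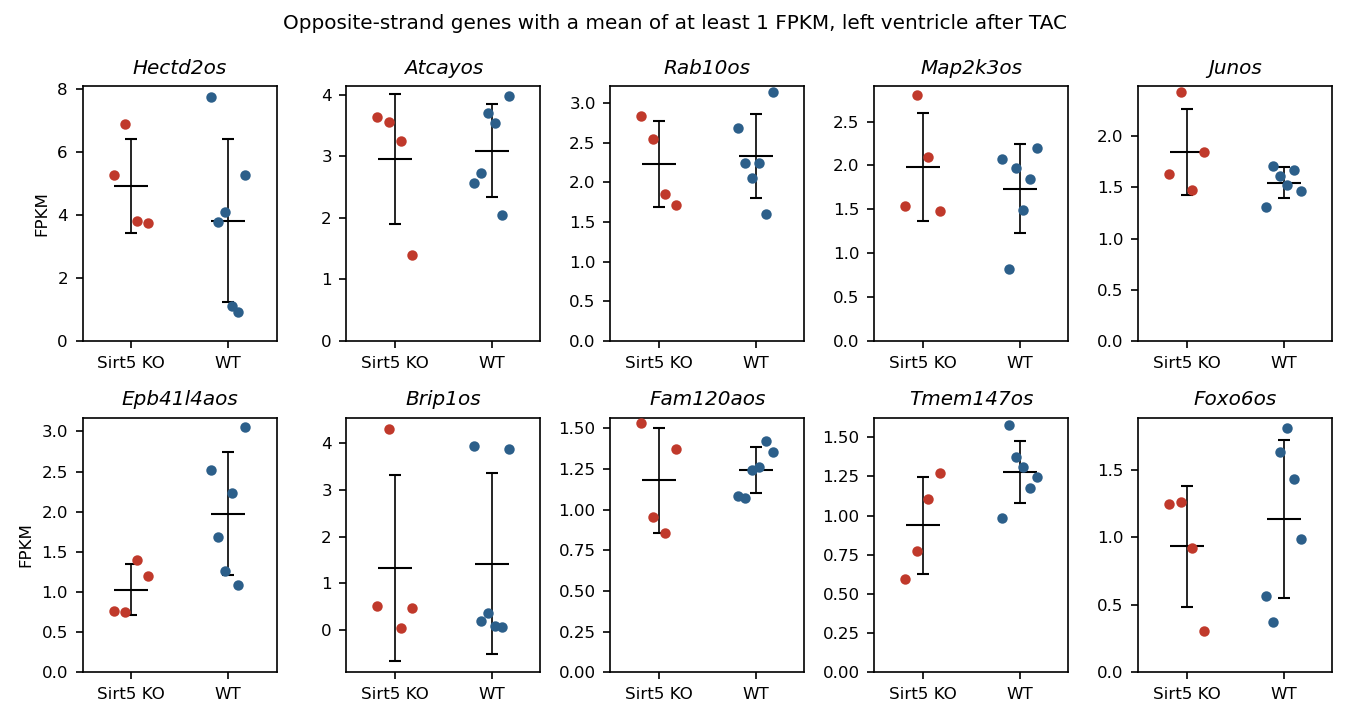
FPKM per sample of the 10 genes with a mean of at least 1 FPKM (vertical axes, each gene on its own scale), Sirt5 KO (red, 4 samples) at the left and WT (blue, 6 samples) at the right, with mean ± SD. The genotypes overlap in all 10 panels, and the Brip1os panel shows 3 samples near 4 FPKM, 1 Sirt5 KO and 2 WT, and the other samples at or below 0.512 FPKM.

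Partners in mitochondria and metabolism had 8 opposite-strand genes at 0.101 to 0.630 FPKM. Of them 3 were above 0 in fold change and 5 below, with a median of -0.35, and 0 passed the test. Mccc1 is a subunit of the mitochondrial carboxylase of leucine breakdown. Mccc1os (ENSMUSG00000086392.9, chr3:35999833-36025106, plus strand) had 0.2005, 0.342, 0.219 and 0.0766 FPKM in Sirt5 KO and between 0.280 and 0.520 FPKM with a median of 0.363 FPKM in WT. Sirt5 KO replicates 2, 4 and 5 were below every WT sample, and replicate 3 was inside the WT range (log2 fold change -0.66, SE 0.31, 95% confidence interval -1.34 to 0.02, limma adjusted p = 0.606). Mccc1os rested on 5.7 to 47.7 estimated fragments a sample and shared 12.3% of its exon bases with coding genes. Its transcripts differed. The highest, of 3353 bases, was at 0.0385 to 0.114 FPKM in Sirt5 KO and 0.223 to 0.358 FPKM in WT. That of 2686 bases was at 0.149 and 0.218 FPKM in Sirt5 KO replicates 2 and 3, above the WT samples (0 to 0.109 FPKM). These transcripts were picked after their values were seen, and the highest transcript alone gave no call.

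Uckl1 resembles the kinases that phosphorylate uridine and cytidine. Uckl1os (ENSMUSG00000010492.10, chr2:181578480-181585170, plus strand) had 0.196, 0, 0 and 0 FPKM in Sirt5 KO and between 0 and 1.03 FPKM with a median of 0.413 FPKM in WT. It was listed at 0 in 3 of 4 Sirt5 KO samples and in WT replicate 1 (log2 fold change -1.71, SE 0.65, 95% confidence interval -3.14 to -0.28, limma adjusted p = 0.561). Its fold change had the largest negative value of the 72, and 28.6% of its exon bases were shared with Uckl1 and Zfp512b.

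The other 6 genes of the class are given by their levels. Man2c1os, beside a cytosolic mannosidase, averaged 0.648 ± 0.249 FPKM in Sirt5 KO and 0.618 ± 0.158 FPKM in WT. Atad3aos, beside an ATPase of the mitochondrial inner membrane, averaged 0.214 ± 0.108 FPKM in Sirt5 KO and 0.442 ± 0.413 FPKM in WT. Hk1os, within the gene of a hexokinase, averaged 0.247 ± 0.175 FPKM in Sirt5 KO and 0.133 ± 0.121 FPKM in WT. Gssos2, beside glutathione synthetase, was listed at 0 in 1 sample and Taco1os, beside the activator of mitochondrial COX1 translation, in 4, and they reached 0.532 and 0.298 FPKM. Dio3 is the deiodinase that inactivates thyroid hormone, and Dio3os lies in the imprinted Dlk1-Dio3 domain. Dio3os, chosen for mention after its values were seen, had 0.177, 0.239, 0.492 and 2.18 FPKM in Sirt5 KO and between 0.116 and 0.570 FPKM with a median of 0.309 FPKM in WT. Sirt5 KO replicate 5 was the highest sample, as it was for Meg3 of the same domain at 7.92 FPKM, and the other 3 Sirt5 KO samples lay inside the WT range.

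Partners of the cytoskeleton, adhesion and matrix had 9 opposite-strand genes at 0.112 to 1.60 FPKM, 3 above 0 in fold change and 6 below, with a median of -0.09. Epb41l4a is a FERM-domain protein of the band 4.1 family. Epb41l4aos (ENSMUSG00000087590.2, chr18:33794892-33795986, plus strand) lies 341 bases beyond the 3' end of Epb41l4a and overlaps no coding gene. It had 0.769, 0.758, 1.40 and 1.20 FPKM in Sirt5 KO and between 1.09 and 3.06 FPKM with a median of 1.96 FPKM in WT. Sirt5 KO replicates 2 and 3 were below every WT sample, and replicates 4 and 5 were inside the WT range. Among the 10 genes of at least 1 FPKM it was the 1 whose confidence interval did not include 0, and it did not pass adjustment (log2 fold change -0.83, SE 0.31, 95% confidence interval -1.51 to -0.15, limma adjusted p = 0.558; adjusted p 0.322 to 0.817 over the alternatives). It rested on 7.8 to 32.4 estimated fragments a sample.

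Ppp1r18 encodes phostensin, an actin-binding regulator of a phosphatase. Ppp1r18os (ENSMUSG00000087443.1, chr17:35860918-35866886, minus strand) had 0.0695, 0.224, 0.118 and 0.288 FPKM in Sirt5 KO and between 0 and 0.205 FPKM with a median of 0.0412 FPKM in WT. Every Sirt5 KO sample was above the WT median, with overlap between the genotypes (log2 fold change 0.74, SE 0.43, 95% confidence interval -0.21 to 1.70, limma adjusted p = 0.703). It shared 34.4% of its exon bases with Ppp1r18 and Nrm and rested on at most 5.3 estimated fragments a sample. Sspn and Dtnb belong to the dystrophin complex that anchors the muscle membrane. Sspnos averaged 0.127 ± 0.0921 FPKM in Sirt5 KO and 0.242 ± 0.132 FPKM in WT, and Dtnbos averaged 0.122 ± 0.0857 FPKM in Sirt5 KO and 0.134 ± 0.0682 FPKM in WT. Has2 makes the matrix glycan hyaluronan, and Has2os averaged 0.331 ± 0.179 FPKM in Sirt5 KO and 0.333 ± 0.244 FPKM in WT. Dnah2os, within the gene of an axonemal dynein, averaged 0.340 ± 0.0205 FPKM in Sirt5 KO and 0.367 ± 0.145 FPKM in WT. Kirrel3os, within the gene of an adhesion protein of the nephrin family, averaged 0.130 ± 0.0824 FPKM in Sirt5 KO and 0.156 ± 0.0573 FPKM in WT.

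Among immune partners were 4 genes at 0.131 to 0.271 FPKM, 3 above 0 in fold change and 1 below. Dhx58 encodes LGP2, a RIG-I-like receptor of viral RNA. Dhx58os (ENSMUSG00000085604.1, chr11:100687417-100697520, plus strand) had 0.154, 0.177, 0.0411 and 0.616 FPKM in Sirt5 KO and between 0.0174 and 0.198 FPKM with a median of 0.0632 FPKM in WT. Sirt5 KO replicate 5 was the highest sample, and the other 3 were inside the WT range (log2 fold change 0.77, SE 0.47, 95% confidence interval -0.27 to 1.81, limma adjusted p = 0.729). Tnfsf13os, beside the cytokine APRIL, averaged 0.286 ± 0.110 FPKM in Sirt5 KO and 0.261 ± 0.276 FPKM in WT, and Tspan32os, beside a tetraspanin of blood cells, averaged 0.0798 ± 0.0444 FPKM in Sirt5 KO and 0.165 ± 0.0929 FPKM in WT. Slfn5os, beside an interferon-induced Schlafen protein, was listed at 0 in 3 samples and reached 0.570 FPKM.

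Channels and receptors were the partners of 3 genes, all with a fold change below 0. Kcnd3 is the Kv4.3 subunit of the transient outward potassium current of the heart. Kcnd3os (ENSMUSG00000074346.6, chr3:105441595-105452955, minus strand), chosen for mention after its values were seen, had 0.549, 0.787, 1.03 and 0.238 FPKM in Sirt5 KO and between 0.523 and 1.05 FPKM with a median of 0.850 FPKM in WT. Sirt5 KO replicate 5 was the lowest sample and the other 3 lay inside the WT range (log2 fold change -0.37, SE 0.34, 95% confidence interval -1.10 to 0.37, limma adjusted p = 0.776). Chrna1os, 4512 bases from the alpha subunit of the muscle acetylcholine receptor, averaged 0.118 ± 0.120 FPKM in Sirt5 KO and 0.193 ± 0.129 FPKM in WT. Kcnab3os, within the gene of a potassium channel beta subunit, averaged 0.0962 ± 0.0734 FPKM in Sirt5 KO and 0.136 ± 0.104 FPKM in WT.

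RNA and DNA handling had 2 partners each. Fam120a is an RNA-binding scaffold, and Fam120aos (ENSMUSG00000097059.1, chr13:48968287-48972031, plus strand) runs away from its promoter. It had 1.53, 0.955, 0.859 and 1.37 FPKM in Sirt5 KO and between 1.07 and 1.42 FPKM with a median of 1.26 FPKM in WT. The Sirt5 KO samples lay on both sides of the WT range, with replicates 3 and 4 below it, replicate 2 above it and replicate 5 inside it (log2 fold change -0.10, SE 0.20, 95% confidence interval -0.55 to 0.35, limma adjusted p = 0.920). Rbm3os, beside a cold-induced RNA-binding protein, was listed at 0 in 1 sample and reached 0.162 FPKM. Etaa1os, beside an activator of the ATR kinase, was listed at 0 in 1 sample and reached 0.489 FPKM.

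Brip1 is a helicase of DNA cross-link repair. Brip1os (ENSMUSG00000085208.3, chr11:86201370-86304443, plus strand) starts 177 bases from Brip1 and runs across Ints2 and Med13 on the opposite strand, with 20.2% of its exon bases shared with them. It had 0.512, 4.31, 0.0410 and 0.473 FPKM in Sirt5 KO and between 0.0740 and 3.94 FPKM with a median of 0.277 FPKM in WT. Sirt5 KO replicate 3, WT replicate 1 at 3.94 FPKM and WT replicate 7 at 3.89 FPKM stood far above the other 7 samples, which lay between 0.0410 and 0.512 FPKM. The level came almost wholly from 1 transcript of 4423 bases and the 3 high samples held 425 to 458 estimated fragments. Both genotypes held high samples, and the interval of the genotype difference was wide (log2 fold change 0.10, SE 1.16, 95% confidence interval -2.44 to 2.64, limma adjusted p = 0.985). Rmrp was above 0 in each of the 3 high samples, as in most of the 10 samples. Over the libraries with Rmrp above 0 the log2 fold change was -1.43. Without Sirt5 KO replicate 3 it was -0.80.

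The partners of 8 further genes have functions too uncertain to state. They are Ccdc142os, Ttc39aos1, Myadml2os, N4bp2os, Lrrc75aos2, Tmem51os1, Banf2os and Phtf1os. Their means lay between 0.113 FPKM for Phtf1os and 0.910 FPKM for Ccdc142os, 5 were above 0 in fold change and 3 below, and 0 passed the test. Ccdc142os averaged 0.866 ± 0.261 FPKM in Sirt5 KO and 0.940 ± 0.228 FPKM in WT.

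**Figure D4:**
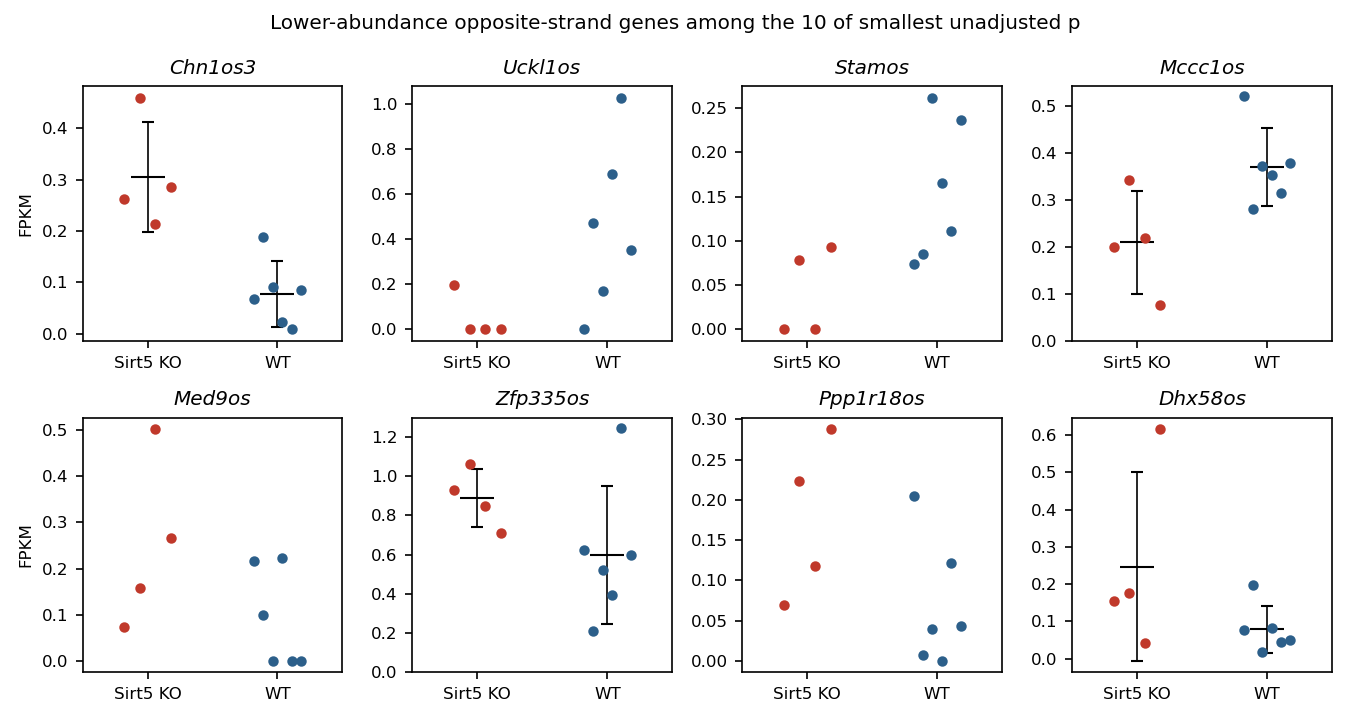
FPKM per sample of the 8 genes under a mean of 1 FPKM among the 10 of smallest unadjusted p (vertical axes, each gene on its own scale), Sirt5 KO (red, 4 samples) at the left and WT (blue, 6 samples) at the right. Mean ± SD is drawn only for genes above 0 in every sample, and only in the Chn1os3 panel do all Sirt5 KO samples, 0.213 FPKM and up, lie above all WT samples, 0.189 FPKM and down.

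By position, 18 of 30 head-to-head genes were above 0 in fold change and 12 below, with a median of 0.08. Among the 39 genes overlapping in another way, 21 were above 0 and 18 below, with a median of 0.04, and all 3 genes apart from their partner were below 0. Head-to-head genes had a median mean level of 0.380 FPKM, against 0.196 FPKM for the overlapping ones. Among the 14 genes wholly within the partner, 8 were above 0 and 6 below. These splits are counts with no test, and none of the arrangements held a gene that passed the test.

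In a few genes single samples stood far from the rest, and these genes are named after their values were seen. Plet1os, opposite a surface protein of placenta and epithelia, was at 1.30 FPKM in Sirt5 KO replicate 3 and at 4.16 FPKM in WT replicate 5, and no other sample exceeded 0.340 FPKM. Cep83os, beside a centriolar protein needed for cilia, was at 0.0534 FPKM in Sirt5 KO replicate 2 and 0.0585 FPKM in WT replicate 4, and between 0.523 and 1.03 FPKM in the other 8 samples. Both low samples had Rmrp above 0, as did most of the 10 samples. Zbtb11os1, beside a zinc-finger factor, was at 0.832 and 1.37 FPKM in Sirt5 KO replicates 4 and 5 and at 1.08 FPKM in WT replicate 3, and was listed at 0 in the other 7 samples, and its estimated fragments in the 3 samples were 25.4, 43.6 and 36.9. Ino80dos, beside a subunit of the INO80 chromatin remodeller, reached 0.832 FPKM in Sirt5 KO replicate 3. High and low samples of these genes came from both genotypes, except that the high Ino80dos sample was a Sirt5 KO one. The high samples of Plet1os, and likewise those of Zbtb11os1, included samples with Rmrp above 0 and samples with Rmrp at 0.

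Genes with fewer fragments varied more between samples. In the median sample, 27 of the 72 genes had at least 10 estimated fragments and 45 had fewer, and 10 genes had at least 10 in every sample. The median coefficient of variation over the 10 samples was 39.5% for the 27 and 79.6% for the 45. Brip1os, Plet1os and Cep83os had at least 1 sample with far more or fewer fragments than the rest. Sirt5 KO replicate 3 held the highest value of 13 genes, Sirt5 KO replicate 5 of 12 and WT replicate 3 of 10, and of the 54 genes above 0 in every sample the lowest value was in Sirt5 KO replicate 5 for 12.

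**Figure D5:**
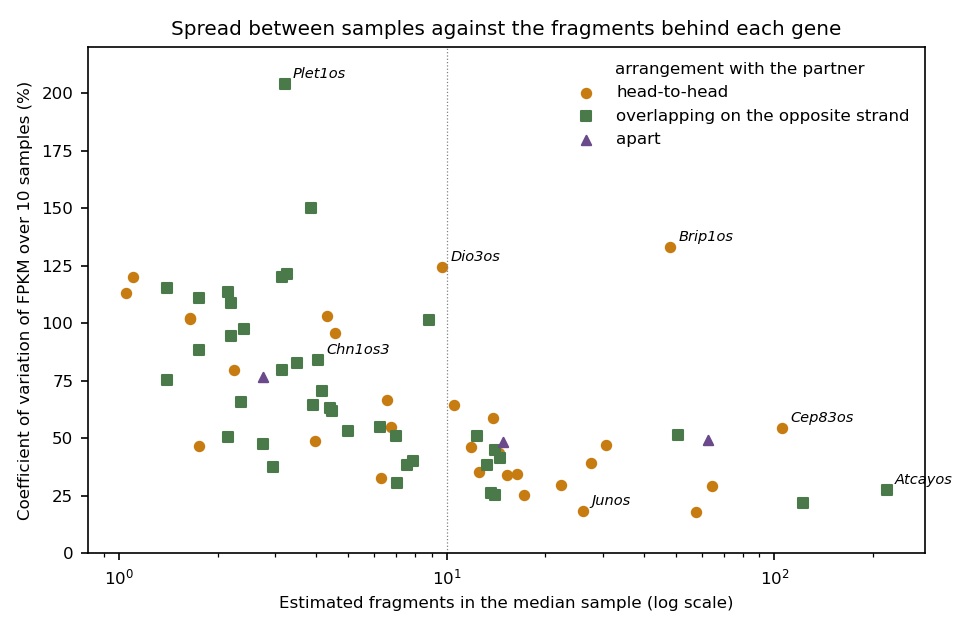
Coefficient of variation of FPKM over the 10 samples (vertical axis, percent) against the estimated fragments in the median sample (horizontal axis, log scale), 1 point per gene, with the shape giving the arrangement with the partner and the dotted line at 10 fragments. Spread was wider at few fragments, with medians of 79.6% left of the line and 39.5% right of it, Brip1os lies far above genes of like depth, and Zbtb11os1, at 0 fragments in the median sample, is not drawn.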

How the data were processed

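Left ventricular RNA of 4 Sirt5 KO and 6 WT samples, grouped and numbered by their titles, was analysed. Per the series' design text, libraries had the second cDNA strand digested, HISAT2 (of a version that the sources used here do not name) mapped reads to GRCm38, and the authors deposited FPKM values per transcript. That text names StringTie 1.2.0 for FPKM and HTSeq 0.6.1 for read counts, which were not used here. It also names more than 1 ribosomal RNA removal kit and sequencer without assigning them to samples, so no batch could be taken into account.

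The 20741 transcripts of the deposited FPKM table were summed per GENCODE vM21 gene or assembled locus. Partners came from the symbol, positions from that annotation, and start windows from RefSeq. Fragments were estimated as FPKM times kilobases times the library's depth taken from the step of low values, and intervals cover the spread between samples only. Genes and loci with a mean of at least 0.1 FPKM (3294) were tested as log2(FPKM + 0.1) with limma 3.58.1 (R 4.3.3), using genotype as the single factor, variances moderated along a trend with level, a two-sided test and Benjamini-Hochberg adjustment over all of them, at 0.05. The fit was checked on simulated data with normally distributed log2 values. These held no values set to 0 and no sampling of few fragments, so the check does not cover genes with such values. Tables were handled with pandas 2.3.3 in Python 3.11.15.

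Members, partner classes and lists were chosen with earlier results of these data known. Given sample by sample were genes with a mean of at least 1 FPKM, genes past the threshold, genes whose genotypes did not overlap and the 10 of smallest unadjusted p, 18 in all. Alternatives changed the pseudocount, filter, scaling, test, transcript choice and samples.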

Additional observations from a re-analysis of the deposited data

Results flagged for a closer look

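For the 18 genes given sample by sample, the highest and lowest sample of each genotype were set against Dixon's 95% critical values, and 3 of 36 groups held a sample farther out than that. The chance rate of about 1 in 20 groups is for normally distributed values. It need not hold for FPKM that rests on few fragments, so the flags are a description. Brip1os was at 4.31 FPKM in Sirt5 KO replicate 3, and the other Sirt5 KO samples lay between 0.0410 and 0.512 FPKM. Uckl1os was at 0.196 FPKM in Sirt5 KO replicate 2 and was listed at 0 in the other Sirt5 KO samples, so any value above 0 would have been flagged there. Dhx58os was at 0.198 FPKM in WT replicate 3, and the other WT samples lay between 0.0174 and 0.0833 FPKM.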

How the results depend on the processing

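None of the 72 genes was called under any of the 25 alternatives, where the smallest adjusted p of any of them was 0.289. The count over all genes and loci, 2, was 1 with a pseudocount of 1 or 0.5 FPKM or a common sum per sample. It was 0 with no filter, quantile normalization, median-of-ratios scaling, no intensity trend, robust moderation, an exact permutation test (smallest possible p 0.00476), the highest transcript alone, Rmrp as a term or only libraries with Rmrp above 0. Leaving out 1 replicate gave 0 to 3: it was 0 without Sirt5 KO replicate 3 or 4 or without any of WT replicates 3 to 7, and 1 without WT replicate 1. With a mean of at least 1 FPKM it was 3, and 6 of the 10 genes left were lower in Sirt5 KO. The median log2 fold change of the 72 was -0.0846 with a common sum, against 0.03. Same-numbered samples correlated at -0.05, 0.04 and -0.03 in their deviations from the group means. The fit with the replicate number as a block called 0 genes and 0 of the 72, and so did the same 6 samples without it. The 2 alternatives on Rmrp as a term and on these 6 samples were chosen after seeing the data.

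Of 442 values of the 18 genes under alternatives, 20 had the opposite direction, none passed the threshold, and 11 genes never turned. Brip1os (0.10) was -0.0126 with a pseudocount of 1, -0.0198 with a common sum, -1.43 with only libraries with Rmrp above 0 and -0.47 with Rmrp as a term, and -0.80 to 0.86 without 1 replicate. With only libraries with Rmrp above 0, Atcayos was 0.0472, Foxo6os 0.19 and Hectd2os -0.0868. With the highest transcript alone, Atcayos was 0.14, Junos -0.00825 and Rab10os 0.21. Without 1 replicate, Atcayos ranged from -0.24 to 0.20, Rab10os from -0.18 to 0.0551, Fam120aos from -0.22 to 0.0315 and Foxo6os from -0.48 to 0.17. The cause was not tested.

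Depth limits most of these genes: 45 of 72 had under 10 estimated fragments in the median sample.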
